A study of Mus musculus with 2 samples.

Results

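Replication-dependent histone genes were examined in single cells of mouse bone marrow. Members were all features whose symbol starts with Hist1h, Hist2h, Hist3h or Hist4h, which gave 67 genes of 32286 features: 6 linker histone H1 genes, 18 H2A, 18 H2B, 12 H3 and 13 H4 genes. The study compared marrow blood cells after MYC overexpression was directed to hematopoietic stem cells. It has 2 libraries, 1 per group, from primary bone marrow described as hematopoietic cells. The control library has the genotype Mx1Cre+/-;Rosa26+/+ and the MYC library the genotype Mx1Cre+/-;Rosa26LSL-MYC/LSL-MYC, so both groups carry the Cre transgene. Mx1-Cre is a recombinase under an interferon-inducible promoter that is active in many cell types, and LSL is a stop element that Cre removes. An inducing agent, the animals' age and the number of animals are not given in the sources used here.

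Each group is a single library, which leaves no spread between replicates to test against, and no p-value is given. Levels are sums of unique molecular identifiers (UMIs) over the cells of a class, per 1000000 UMIs of those cells (CPM). Intervals are exact 95% intervals, Poisson for a level and conditional binomial for a ratio, and they cover counting error only. Genotype, animal and library preparation cannot be told apart. Filters left 14903 control cells (median depth 5343 UMIs) and 12540 cells of the MYC library (median 6016), which had 79 cell barcodes in common. The feature named MYC had 0 UMIs in the control library and 289 UMIs in 267 cells of the MYC library, 2.84 CPM, while mouse Myc stood at 23.4 CPM in control cells and 21.2 CPM in those of the MYC library. In the neutrophil lineage the median log2 ratio of all genes, MYC over control, was -0.20 in cycling and -0.23 in non-cycling cells, so each ratio below 0 is read against that shift.

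Replication-dependent histone genes supply the proteins that package newly copied DNA. Core histones H2A, H2B, H3 and H4 form the nucleosome, and linker histones of the H1 family bind the DNA between nucleosomes. Transcription and processing of these genes are coupled to S phase. Their mRNA usually ends just after a conserved stem-loop that the stem-loop binding protein recognises, without a poly(A) tail. Some of the genes also yield longer, polyadenylated transcripts, as described in differentiated cells. The libraries were made with the Chromium Single Cell 3′ v2 kit per the labels' protocols, which primes on poly(A), so a mature histone mRNA is a poor template unless it carries a tail or an internal run of A. UMIs of 2 members therefore do not compare their amounts of mRNA, and the comparisons below are of the same gene between groups of cells.

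The stem-loop was looked for in the annotated transcripts (GENCODE vM21, GRCm38) within 150 bases after the stop codon, as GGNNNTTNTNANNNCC on the transcript strand. It was present in 45 of the 67 members and in 53 of 21632 other genes (0.245%). The 45 members shared 8 forms, of which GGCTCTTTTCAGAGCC was in 25 and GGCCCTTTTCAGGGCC in 7. Shown here, with the stem-loop in capitals and its position after the name, are members with many UMIs and 2 members that stand apart in S phase below.
Hist1h1c at chr13:23739512-23739527, plus strand: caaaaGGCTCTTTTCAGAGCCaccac
Hist1h1e at chr13:23621782-23621797, minus strand: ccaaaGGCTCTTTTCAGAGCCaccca
Hist1h2ap at chr13:21833029-21833044, minus strand: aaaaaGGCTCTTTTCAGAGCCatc
Hist2h2ac at chr3:96220418-96220433, minus strand: aaaaaGGCTCTTTTTAGAGCCaccaa
Hist1h4d at chr13:23581950-23581965, plus strand: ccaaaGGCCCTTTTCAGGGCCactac
Hist1h3a at chr13:23761890-23761905, minus strand: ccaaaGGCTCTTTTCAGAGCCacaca
Hist1h4a at chr13:23760800-23760815, minus strand: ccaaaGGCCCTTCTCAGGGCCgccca
The transcript of Hist1h2ap ends 3 bases after the stem-loop, whereas those of Hist1h1c and Hist1h1e run on for 840 and 1153 bases. The annotated models of Hist1h1b and Hist1h1a hold 0 and 48 bases after the stop codon and no stem-loop in that stretch.

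Members lie in clusters, 54 on chromosome 13, 10 on chromosome 3, 2 on chromosome 11 and 1 on chromosome 6, and 62 have a single exon. Sequence sharing limits what can be assigned to a member. In 32 of the 67, more than 50% of all 50-base windows of the transcript also occur in another gene, and these members held 27.1% of member UMIs. Hist1h2ap shared 93.1% of its windows, so its counts are uncertain to that extent, while Hist1h1b and Hist1h1a shared none. How reads that fit several genes were treated is not given in the sources used here.

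Few members carried most of the signal. Of 498591 member UMIs in control cells and 530676 in the MYC library, Hist1h1b held 19.4%, Hist1h2ap 15.8% and Hist1h1e 13.4%, and the 10 members with most UMIs held 78.0% together. Linker histones gave 43.2% of member UMIs, H2A 30.9%, H4 12.6%, H2B 6.76% and H3 6.50%. Hist1h2ba, a testis form of H2B, had 0 UMIs in either library, and 5 members had fewer than 50 UMIs in all. The testis linker histone Hist1h1t stood at 0.07 and 0.06 CPM in cycling cells of the neutrophil lineage. Internal runs of at least 8 A occurred in 7 members, Hist1h2ap, Hist1h2ae and Hist1h1d among them, and the 7 together gave 27.7% of member UMIs.

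Cycling state was called without any histone gene. Each cell of at least 2000 UMIs was thinned to 2000 UMIs, and those with 10 or more UMIs over lists of 43 S-phase and 54 G2/M genes were called cycling, those with 4 or fewer non-cycling. A cycling cell was S-leaning where its S-phase UMIs exceeded its G2/M UMIs and G2/M-leaning otherwise. Cells were grouped by marker-defined clusters, and class names such as monocyte-like mean no more than that. The neutrophil lineage joins granulocyte-progenitor-like, immature-neutrophil-like and mature-neutrophil-like clusters. It held 495 S-leaning, 1211 G2/M-leaning and 3942 non-cycling control cells, and 480, 1445 and 3465 such cells of the MYC library.

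Cycling cells held far more histone transcripts than non-cycling ones. In the neutrophil lineage the 67 members summed to 839 CPM in non-cycling, 4198 CPM in S-leaning and 7754 CPM in G2/M-leaning control cells. The MYC library gave 1169, 5497 and 9067 CPM. S-leaning control cells were thus 5.002-fold (4.91 to 5.09) above non-cycling ones, and those of the MYC library 4.70-fold (4.63 to 4.77). Median depth was 16598 UMIs in S-leaning and 4936 in non-cycling control cells, and the lineage mixes stages: its non-cycling cells were immature- and mature-neutrophil-like, with 6 and 11 progenitor-like cells. Within the immature-neutrophil-like clusters alone the ratio was larger, 7.10-fold (6.89 to 7.31) and 6.51-fold (6.35 to 6.67). The median log2 ratio of all genes between these states was 0.77 and 0.76, and with median-of-ratios scaling the folds became 2.92 and 2.79.

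The same order held class by class. Cycling cells exceeded non-cycling ones in all 16 combinations of class and library with at least 20 cells in each state, by 1.83- to 15.99-fold. Of these combinations 3 are immature- or mature-neutrophil-like, and the lowest fold outside the neutrophil lineage was 2.71, in stem-or-multipotent-progenitor-like cells of the MYC library. Control plasmacytoid-dendritic-like cells gave the widest ratio, 421 against 6736 CPM, and mature-neutrophil-like cells the narrowest, with 23 cycling cells. G2/M-leaning cells of the basophil-or-mast-like class held the most histone UMIs, 11943 CPM (control) and 13205 CPM (MYC library). Cycling stem-or-multipotent-progenitor-like cells were low among cycling classes, at 4079 and 4087 CPM.

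**Figure D1:**
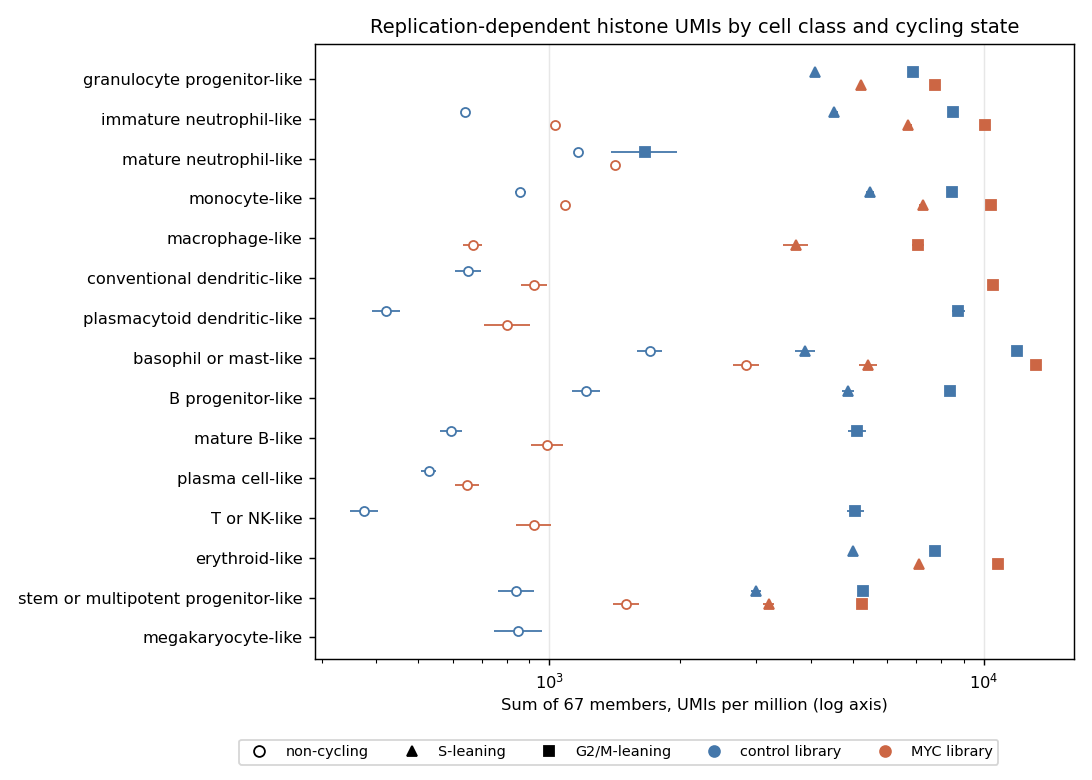
Summed UMIs of the 67 members per 1000000 UMIs (CPM, log axis) in each marker-defined class, by cycling state (marker shape) and library (colour), for groups of at least 20 cells; bars are 95% Poisson intervals. S-leaning and G2/M-leaning points lie to the right of non-cycling ones in every class that has them, and G2/M-leaning points lie furthest right.

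G2/M-leaning cells exceeded S-leaning cells in 14 of 14 combinations of class and library, by 1.43- to 3.08-fold. In the neutrophil lineage the ratio was 1.85 (1.83 to 1.87) in control cells and 1.65 (1.63 to 1.67) in the MYC library. Cells differed widely within the S-leaning group: control cells of the lineage had 633 CPM at the 10th, 1866 CPM at the 50th and 9994 CPM at the 90th percentile. Ordering cycling cells by the S-phase share of their cycle-list UMIs placed the peak between the extremes. Cells with a share of 80 to 100% held 1523 CPM (control) and 2551 CPM (MYC library). The sum was highest at a share of 20 to 40%, with 8966 and 10075 CPM, and stood at 6512 and 8188 CPM below 20%. Median depth ran from 15751 to 17947 UMIs over these groups and was highest where the S-phase share was highest. Counts of cycle-list UMIs used for the grouping were lower where the S-phase share was high, with medians of 15 against 26 in the control.

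**Figure D2:**
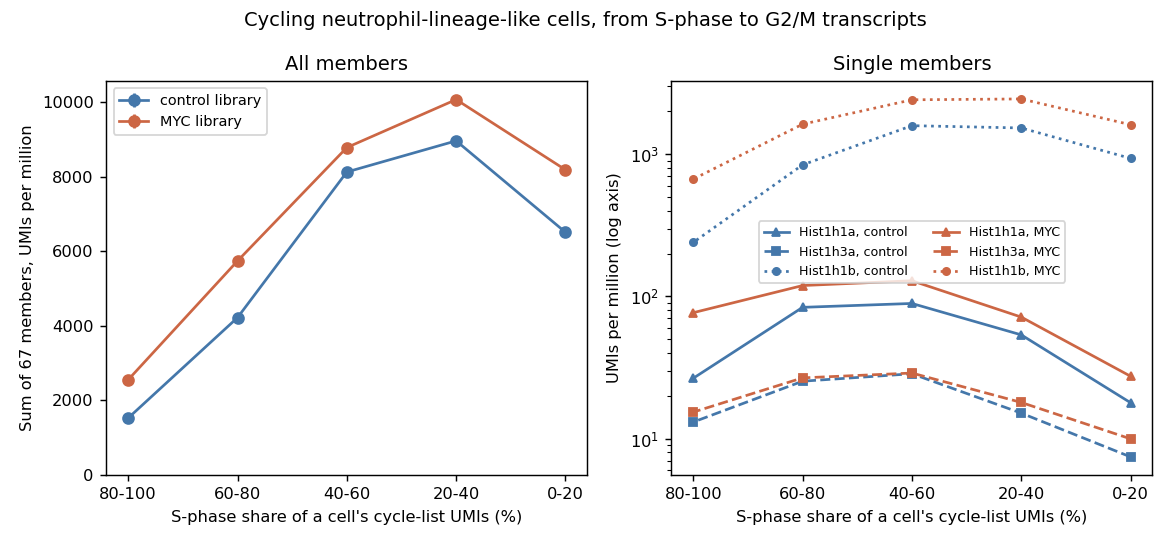
Histone levels in cycling neutrophil-lineage-like cells grouped by the S-phase share of their cycle-list UMIs, from 80-100% on the left to 0-20% on the right. The left panel gives the sum of 67 members in CPM with 95% Poisson intervals, highest at 20-40% in each library; the right panel gives 3 linker or H3 members on a log axis, of which Hist1h1a and Hist1h3a are highest at 40-60%.

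Linker histones differed among themselves in their ratio of S-leaning to non-cycling cells. Hist1h1b, a linker histone typical of dividing cells, stood at 39.0 CPM in non-cycling and 839 CPM in S-leaning control cells of the lineage, and at 88.0 and 1550 CPM in the MYC library. Its log2 ratios were 4.43 (4.33 to 4.53) and 4.14 (4.07 to 4.21). Hist1h1a, another linker histone, went from 6.89 to 73.7 CPM and from 5.70 to 113 CPM, and Hist1h1d from 24.5 to 142 CPM and from 27.4 to 166 CPM. In contrast, Hist1h1e was already abundant in non-cycling cells, with 186 against 365 CPM in the control and 412 against 735 CPM in the MYC library. Hist1h1c was lower in S-leaning than in non-cycling control cells, 118 against 244 CPM, a log2 ratio of -1.05 (-1.15 to -0.96), and in the MYC library it stood at 185 against 242 CPM. Among non-cycling cells Hist1h1c was higher in the mature-neutrophil-like clusters, where it reached 397 and 329 CPM against 151 and 197 CPM in immature-neutrophil-like ones. Within the immature-neutrophil-like clusters the direction turned, with 175 CPM in S-leaning and 151 CPM in non-cycling control cells (log2 ratio 0.21, 0.05 to 0.38) and 284 and 197 CPM in the MYC library (0.53, 0.38 to 0.67). In monocyte-like cells Hist1h1c stood at 161 CPM in S-leaning and 96.0 CPM in non-cycling control cells and at 237 and 117 CPM in the MYC library, so the lower level of Hist1h1c in S-leaning cells held in the lineage with its mature cells and not in these classes.

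Members of the H2A and H2B families, which pair into dimers of the nucleosome, mostly showed steep ratios. Hist1h2ap went from 56.2 to 1014 CPM in the control and from 68.2 to 750 CPM in the MYC library. Hist1h2ae, Hist2h2ac and Hist1h2ab had control log2 ratios of 4.12, 4.56 and 3.84. Hist1h2an reached 4.93 and 5.18 in the 2 libraries from non-cycling levels of 0.2 and 0.3 CPM. For Hist1h2ah, with 0 UMIs in non-cycling cells of the MYC library, only the lower end of the interval, 1.85, was defined there. Hist1h2bc, an H2B gene, went the other way, with 61.2 CPM in non-cycling and 37.4 CPM in S-leaning control cells, and 36.8 and 35.1 CPM in the MYC library, where the interval of the ratio included 0. This direction also turned within the immature-neutrophil-like clusters, where Hist1h2bc stood at 13.03 and 35.3 CPM in the control (log2 ratio 1.44, 1.02 to 1.84) and at 10.2 and 40.4 CPM in the MYC library (1.98, 1.55 to 2.41). Hist3h2a, an H2A gene outside the large clusters, stood at 4.1 and 3.7 CPM in the control. In the MYC library its log2 ratio was -0.62, the lowest of the 48 members with at least 50 UMIs. Within the immature-neutrophil-like clusters of that library it stayed below 0, at -1.42, with an interval that included 0.

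H3 and H4 form the central tetramer of the nucleosome. The 9 H3 members that passed the minimum of UMIs had median log2 ratios of 4.09 and 3.79, and the 8 and 9 such H4 members of 2.34 and 2.41. A low member passes mostly through its S-leaning UMIs, so nothing is read from this gap. For all cycling over non-cycling cells of the MYC library, where 10 H3 and 13 H4 members passed, the medians were 4.05 and 3.27. Hist1h3g had log2 ratios of 4.98 (3.68 to 6.65) and 4.48 (3.48 to 5.66), and Hist1h3a of 4.64 and 4.14. Hist1h4d, the H4 gene with most UMIs, went from 33.5 to 260 CPM and from 69.2 to 348 CPM. Hist1h4h went from 7.76 to 91.0 CPM and from 10.9 to 86.2 CPM. Hist1h4i, with 21.6 and 61.3 CPM in the control, had lower ratios of 1.51 and 2.02, and Hist4h4 had 1.07 in the control but 2.44 in the MYC library. Hist2h3c2 stood near 0.6 CPM in each state and library.

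A member was called where it had at least 50 UMIs over the groups compared, differed at least 2-fold and had an interval that excluded no change. Of the 47 members that passed the minimum for S-leaning against non-cycling control cells of the lineage, 41 were higher and 1, Hist1h1c, was lower, against 44.7% and 15.5% of all genes. In the MYC library 44 of 48 were higher and 0 lower, against 45.3% and 15.2%. Their median log2 ratio was 3.58 and 3.22, and that of all genes 0.77 and 0.76. A member at a low level passes the minimum only through the state where it is high, so these counts describe the members that passed and leave 20 and 19 members without a value. Within immature-neutrophil-like clusters, where all genes had medians of 0.10 and 0.04, 30 of 32 members were higher in control cells and 34 of 36 in the MYC library, against 21.6% and 20.8% of all genes. Over all cycling cells of the lineage 52 of 57 members were higher in control cells and 54 of 57 in the MYC library, against 42.4% and 43.1% of all genes, and 0 were lower, against 12.9% and 12%. For immature-neutrophil-like cells the counts were 52 of 53 and 56 of 57, against 22.5% and 24%, with 0 lower, against 9.28% and 8.75%. For monocyte-like cells they were 46 of 50 and 50 of 53, against 14.4% and 11.6%, with 0 lower, against 4.75% and 2.72%. In the S-leaning comparison of immature clusters Hist1h1c was higher by less than 2-fold in each library and so not called. Hist4h4 was not called in the control either. Hist3h2a was not called in the MYC library, where its log2 ratio was -1.42 with an interval that included 0.

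Members whose annotated transcripts end just after the stem-loop and members with longer annotated ends contributed differently by state. In 45 the annotation stops within 200 bases of the stem-loop, or of the stop codon where no stem-loop was found (short ends). In the other 22 it runs further (extended ends), and a poly(A) signal, AATAAA or ATTAAA, lies in the last 50 bases of 10 of these and of 6 of the short ones. Short-end transcripts summed to 177 CPM in non-cycling and 2959 CPM in S-leaning control cells, and extended-end ones to 662 and 1239 CPM. Extended-end members made up 78.9% of member UMIs in non-cycling control cells but 29.5% in S-leaning and 33.1% in G2/M-leaning ones, and 75.6%, 33.8% and 40.1% in the MYC library. Single members can be set side by side only where they passed the minimum of UMIs, which 28 of 45 short-end and 19 of 22 extended-end members did in the control. Their median log2 ratios of S-leaning over non-cycling cells were 4.01 and 1.60, but a low short-end member passes mostly through its S-leaning UMIs, so nothing is read from this gap or from the lower end of the short-end values, 2.19. Among short-end members that did not pass, Hist3h2ba had 12 UMIs in S-leaning and 22 in non-cycling control cells, a ratio of 0.38. Whether a UMI came from a polyadenylated form cannot be read from counts per gene, and the part of capture in these ratios was not tested.

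**Figure D3:**
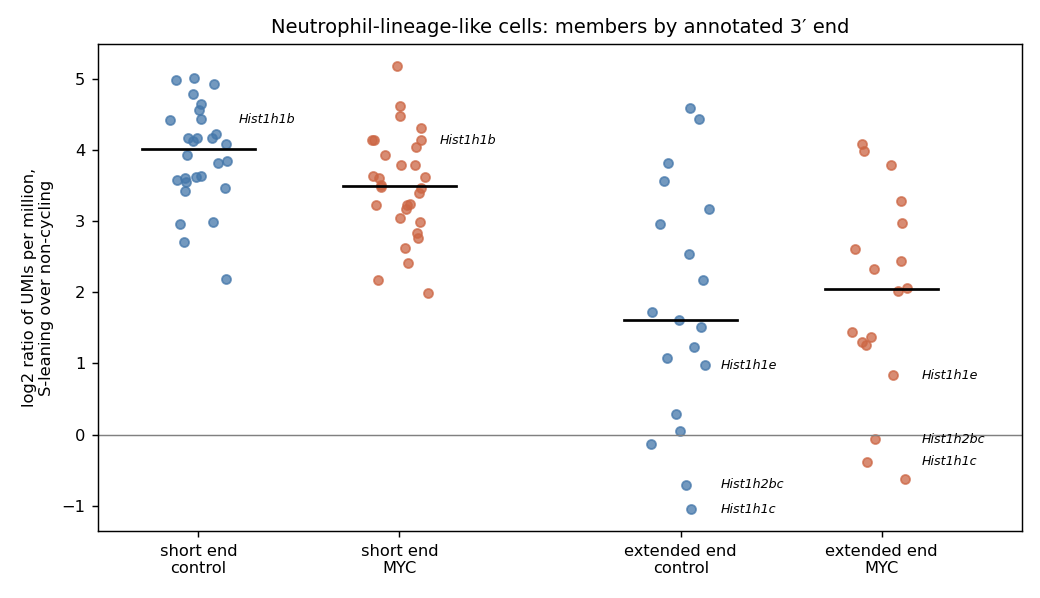
Log2 ratio of S-leaning over non-cycling neutrophil-lineage-like cells for each member with at least 50 UMIs, by annotated 3′ end and library; each point is a member and the black line is the median. Members under that minimum, 17 short-end members in the control among them, are not shown and include lower values such as Hist3h2ba. Of the members shown, Hist1h1c, Hist1h2bc and Hist3h2a reach values below 0 in the lineage. Within its immature clusters alone Hist1h1c and Hist1h2bc were above 0, whereas Hist3h2a stood at -1.42 in the MYC library.

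Most members were higher in G2/M-leaning than in S-leaning cells of the lineage. Of 57 members that passed the minimum, 0 were called higher in S-leaning cells in either library, against 9.63% (control) and 8.43% (MYC library) of all genes. In the opposite direction 19 were called in the control, against 3.29% of all genes, and 12 in the MYC library, against 3.69%. Intervals above 0 in each library were found for 3 of the 57, and these 3 were singled out after their values were seen. The share of all genes with such intervals was not counted, so nothing is read from that count. Hist1h1a stood at 73.7 CPM in S-leaning and 41.3 CPM in G2/M-leaning control cells and at 113 and 58.7 CPM in the MYC library. Its log2 ratios were 0.84 (0.69 to 0.98) and 0.94 (0.82 to 1.06). Hist1h3a had 22.9 against 13.7 CPM and 25.3 against 15.5 CPM, ratios of 0.74 and 0.71. Hist1h4a had 14.9 against 11.7 CPM and 13.4 against 10.3 CPM, ratios of 0.35 and 0.38.

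These 3 genes encode a linker histone, an H3 and an H4, and they stand side by side, as numbers 50 to 52 of the 54 members along chromosome 13. Hist1h1b in the same chromosome's cluster had ratios of -0.59 and -0.41, and Hist1h2ap of -0.92 and -0.75. The pattern was not shared by all classes. Over 14 combinations of class and library Hist1h1a had an interval above 0 in 6 and below 0 in 1, the control B-progenitor-like cells, where it stood at 206 against 305 CPM. Hist1h3a had intervals above 0 in 5 and below in 1, and Hist1h4a above in 2 and below in 2, the erythroid-like cells of each library. Hist1h1b and Hist1h2ap were below 0 in 14 of 14.

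**Figure D4:**
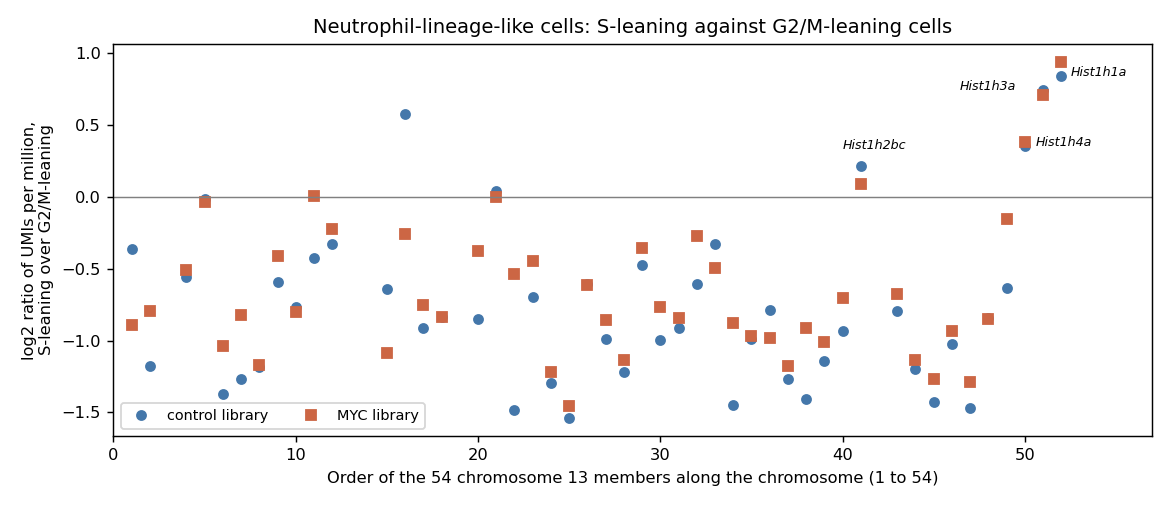
Log2 ratio of S-leaning over G2/M-leaning neutrophil-lineage-like cells for members on chromosome 13 with at least 50 UMIs, in their order along the chromosome, by library. Points of Hist1h4a, Hist1h3a and Hist1h1a at the right end lie above 0 in each library, while most others lie below 0.

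Promoters were compared because members move together with the cycle, yet the neighbours Hist1h1a, Hist1h3a and Hist1h4a were higher in S-leaning cells of the lineage. RefSeq promoters on GRCm38.p6, from 250 bases before to 50 after the start, were found for 62 members. The motif CCAAT (either strand) was in 85.5% of them and in 37.9% of 27025 promoters of the same length. It occurred in 6 of 6 H1, 18 of 18 H2A, 16 of 16 H2B and 10 of 10 H3 promoters but in 3 of 12 H4 promoters. TATAAA was in 56.5% against 14.2%, and the octamer ATTTGCAT in 21.0% against 1.75%, in H2A and H2B promoters only. A motif match is a description of the letters and not a bound site. The linker gene Hist1h1a was higher in S-leaning than in G2/M-leaning cells, and Hist1h1b, which is not its neighbour, was lower. By S-phase share, though, control Hist1h1b was highest at 40 to 60%, as Hist1h1a was, with 1587 CPM against 1529 CPM at 20 to 40%. In the MYC library Hist1h1b stood at 2413 and 2446 CPM in these groups. Promoters of Hist1h1a and Hist1h1b are shown with CCAAT or its reverse complement ATTGG and TATAAA in capitals.
Hist1h1a promoter, chr13:23763418-23763717, plus strand: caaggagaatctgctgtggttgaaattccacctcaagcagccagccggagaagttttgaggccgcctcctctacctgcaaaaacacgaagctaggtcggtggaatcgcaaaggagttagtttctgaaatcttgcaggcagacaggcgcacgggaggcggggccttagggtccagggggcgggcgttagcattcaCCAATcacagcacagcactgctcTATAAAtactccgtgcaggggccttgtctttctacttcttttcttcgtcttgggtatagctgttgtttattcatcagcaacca
Hist1h1b promoter, chr13:21780576-21780875, minus strand: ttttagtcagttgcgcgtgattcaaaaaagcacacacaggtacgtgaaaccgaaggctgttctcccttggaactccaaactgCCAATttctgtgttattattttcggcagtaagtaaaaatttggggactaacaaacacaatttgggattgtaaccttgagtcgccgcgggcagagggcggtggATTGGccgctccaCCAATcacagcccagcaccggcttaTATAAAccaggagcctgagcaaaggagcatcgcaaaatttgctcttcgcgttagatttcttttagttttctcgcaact
Hist1h1a held 1 such CCAAT match and Hist1h1b 3, and each held TATAAA.

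The MYC library was compared with the control within states, to ask whether histone transcripts differed between cells called to the same state. Cells within a state were not matched for their place in the cycle. By S-phase share, cycling cells of the neutrophil lineage held 1523 CPM (control) and 2551 CPM (MYC library) at 80 to 100%. At 40 to 60% they held 8130 and 8786 CPM. The part of the mix of cells within a state in the ratios below was not tested. The sum of members was 1.31-fold (1.29 to 1.33) higher in S-leaning cells of the neutrophil lineage, a log2 ratio of 0.39, and 1.17-fold (1.16 to 1.18) higher in G2/M-leaning cells. Cells between the cycling limits had the widest ratio in the lineage, 1136 against 2239 CPM or 1.97-fold (1.90 to 2.04), while stem-or-multipotent-progenitor-like cells of that state, 30 and 36 in number, had a log2 ratio of -0.30 (-0.47 to -0.14). Granulocyte-progenitor-like cells were 57 of the 897 lineage cells of that state in the control and 92 of 438 in the MYC library. The mix of classes thus differed, and its part was not tested. The S-leaning ratio was 0.24 among cells under 5% mitochondrial UMIs, 0.23 without Hist1h1b and 0.60 with median-of-ratios scaling. Median mitochondrial shares were 4.001% in S-leaning control cells and 2.95% in those of the MYC library, and their part in the result beyond that alternative was not tested.

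Linker and core histones did not move alike. In cycling cells of the lineage H1 members stood at 2323 CPM (control) and 3874 CPM (MYC library), a log2 ratio of 0.74 (0.72 to 0.75), while H2A members stood at 2699 and 2224 CPM, a ratio of -0.28 (-0.29 to -0.26). H1 made up 34.8% (control) and 47.8% (MYC library) of member UMIs, and H2A 40.4% and 27.5%. H2B, H3 and H4 had ratios of 0.39, 0.26 and 0.23. The H2A difference rested on Hist1h2ap, without which the H2A ratio was 0.05 (0.03 to 0.08). All core members together had a ratio of -0.04, which lies 0.16 above the median of all genes, so its direction depends on that scaling.

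Among single members, Hist1h1b stood at 1135 CPM in cycling control cells and 1923 CPM in cycling cells of the MYC library (log2 ratio 0.76, 0.74 to 0.78). Hist1h1e went from 672 to 1280 CPM, a ratio of 0.93 (0.91 to 0.95), and Hist1h1c from 224 to 347 CPM. These 3 linker genes were higher in the MYC library, as was Hist1h1a at 51.1 and 73.3 CPM, whereas Hist1h1d, at 241 and 252 CPM, differed by 0.06. Hist1h2ap went from 1639 to 1123 CPM, a ratio of -0.55 (-0.56 to -0.53) that stayed below the median of all genes by 0.35. Given its shared sequence, the reads of Hist1h2ap may belong in part to other H2A genes. Hist1h2ai and Hist1h4f were lower as well, with ratios of -0.56 and -0.68 at levels under 20 CPM. Hist1h2af went from 42.0 to 89.9 CPM (1.10), and Hist1h2bn from 16.7 to 31.7 CPM (0.92).

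Past 2-fold, Hist1h2af was the only one of 60 members that passed the minimum in cycling cells, so 1 was higher and 0 lower, against 1.53% and 2.91% of all genes. That share is near the background. With cells under 5% mitochondrial UMIs no member was past 2-fold, and with median-of-ratios scaling Hist1h2bn and Hist1h1e joined it. In S-leaning cells 3 of 53 were higher, Hist1h2an, Hist1h2af and Hist1h1e, and 0 lower, against 1.21% and 3.6% of all genes. In G2/M-leaning cells 1 of 59, Hist1h2af again, was higher and 0 lower, against 1.61% and 2.43%. Without the 2-fold limit, 29 of 60 had an interval above 0 and 9 below. The share of all genes with such an interval was not counted, so nothing is read from these counts. The median of the 60 was 0.14, against -0.20 for all genes, and 48 lay above that median. For 9 of the 60 the direction flips when set against the median of all genes, Hist1h4h and Hist1h2bc among them.

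Several of these directions recurred across classes. In 7 classes with at least 20 cycling cells per library, some of which are parts of the neutrophil lineage, Hist1h1b had an interval above 0 in 7, from 0.49 in stem-or-multipotent-progenitor-like to 1.04 in plasmacytoid-dendritic-like cells. Hist1h1e did so in 7, from 0.59 to 1.19, and Hist1h4d in 7, from 0.24 to 0.84. Hist1h2ap had an interval below 0 in 7, from -1.12 in stem-or-multipotent-progenitor-like to -0.40 in erythroid-like cells. Each class was compared between the same 2 libraries, so the 7 are not independent. Monocyte-like cycling cells had 1515 and 2769 CPM of Hist1h1b, and 1 of 56 members was called higher and 1 lower, against 1.71% and 3.82% of all genes. In cycling erythroid-like cells 8 of 58 members were called higher and 0 lower, against 3.98% and 4.2% of all genes, among them Hist1h1e with 573 and 1310 CPM. There the H2A sum differed by 0.02, and by 0.43 without Hist1h2ap. The sum of all members in cycling stem-or-multipotent-progenitor-like cells gave a fold of 1.002 (0.976 to 1.03), with H1 at 0.50 and H2A at -0.72 on the log2 scale. There 0 of 37 members were called higher and 1, Hist1h2ap, lower, against 0.973% and 2.25% of all genes. Granulocyte-progenitor-like cells had 1 of 58 higher and 0 lower, against 1.57% and 3.37%, and immature-neutrophil-like cells 1 of 57 higher and 0 lower, against 2.2% and 2.44%; the member was Hist1h2af in each.

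**Figure D5:**
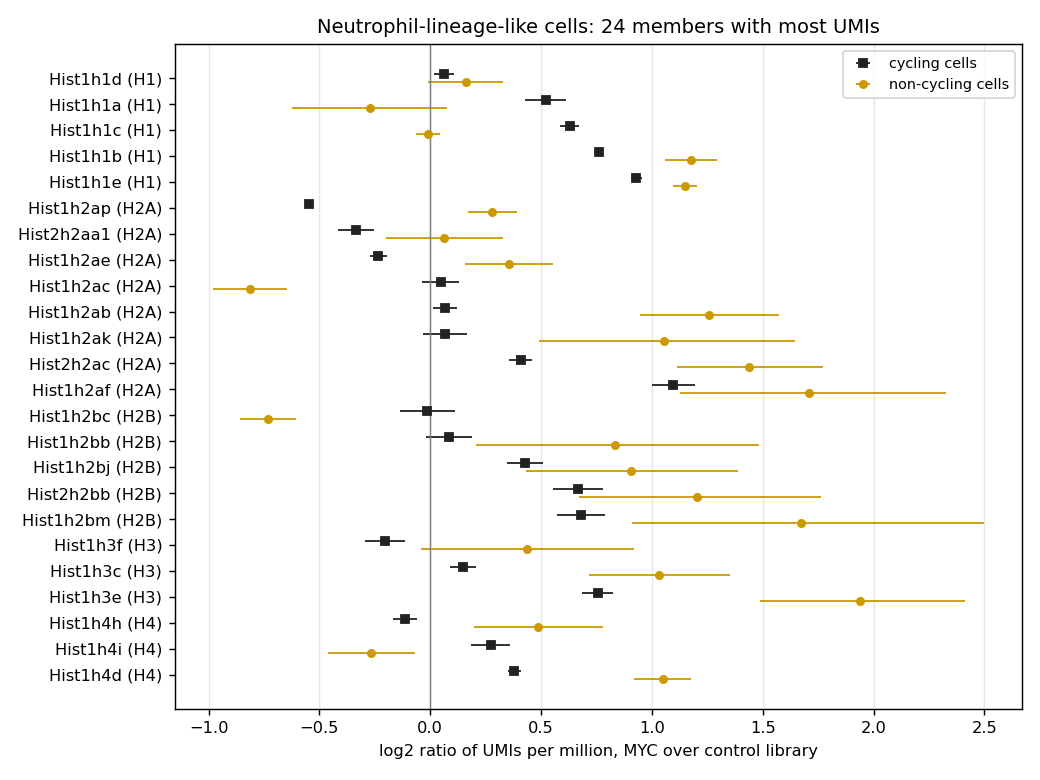
Log2 ratio of CPM, MYC over control library, for the 24 members with most UMIs in neutrophil-lineage-like cells, by state; bars are 95% conditional binomial intervals. Squares are cycling and circles non-cycling cells: Hist1h1b and Hist1h1e lie right of 0 in each state, and Hist1h2ap lies at -0.55 in cycling and 0.28 in non-cycling cells.

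In non-cycling cells the MYC library was higher too. The sum in the neutrophil lineage was 839 CPM (control) and 1169 CPM (MYC library), 1.39-fold (1.37 to 1.42), and it was higher in 10 of 10 classes, with log2 ratios from 0.29 to 1.30. Of 37 members that passed the minimum 13 were called higher and 2, Hist2h3c1 and Hist4h4, lower, against 2.25% and 5.78% of all genes. H1 and H3 had log2 ratios of 0.63 and 0.78, H4 and H2A of 0.53 and 0.24, and H2B was lower in the MYC library, at -0.29 (-0.38 to -0.20), close to the median of all genes. In immature clusters H2B had 0.33, and in mature ones -0.48. Short-end members summed to 177 CPM (control) and 285 CPM (MYC library), a ratio of 0.685, and extended-end members to 662 and 884 CPM, a ratio of 0.42. Hist1h1b stood at 39.0 and 88.0 CPM, a ratio of 1.18 (1.06 to 1.29), Hist1h1e at 186 and 412 CPM and Hist1h4d at 33.5 and 69.2 CPM. Hist1h1c was at 244 and 242 CPM, and Hist1h2bc had a ratio of -0.73 (-0.86 to -0.61). The ratio of Hist1h2bc was -0.35 (-0.68 to -0.02) in immature clusters, near the median of all genes there, -0.23, and it lay above 0 in 7 of 10 non-cycling classes, with the interval above 0 in 3 and below 0 in 2. Different clusters hold the mature-neutrophil-like cells of the 2 libraries, mostly clusters 2 and 9 in the control and clusters 5 and 2 in the MYC library. In the immature-neutrophil-like clusters alone, the sum was 639 and 1031 CPM, and 9 of 29 members were higher and 1 lower, against 2.47% and 4.74% of all genes. Mature-neutrophil-like cells had 9 of 26 higher and 1 lower, against 2.58% and 6.07%. Monocyte-like cells had 2 of 26 higher, Hist2h2ac and Hist1h3c, and 0 lower, against 4.85% and 6.54%.

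RNA free in the droplets can add UMIs to any cell, so non-cycling lymphoid-like cells were read beside these values. Hist1h1b stood at 28.1 and 115 CPM in T-or-NK-like, 63.9 and 139 CPM in mature-B-like and 35.1 and 92.1 CPM in plasma-cell-like cells, control before MYC library. Short-end members summed to 120 to 212 CPM in those classes of the control and to 218 to 384 CPM in those of the MYC library. Levels of Hist1h1b and the short-end sum in non-cycling neutrophil-lineage cells lie within or below those ranges, so they are not read as expression there. The highest class ratio, 1.30, was that of T-or-NK-like cells, with 375 and 923 CPM of all members. The sum of 8 neutrophil marker genes was 5094 and 2922 CPM in those T-or-NK-like cells, 1717 and 2649 CPM in mature-B-like and 2359 and 2915 CPM in plasma-cell-like cells, so it was lower in the MYC library in 1 of these 3 classes and higher in 2. Barcodes of the unnamed cluster with the lowest UMI counts, medians of 747 and 803 UMIs, held 2109 and 3985 CPM of members and 393 and 838 CPM of Hist1h1b. Hist1h1c and Hist1h1e in non-cycling neutrophil-lineage cells lay above all 3 lymphoid-like classes of the same library, which had 56.7 to 118 CPM of Hist1h1c in the control. The unnamed cluster, however, held 225 and 628 CPM of Hist1h1e, above the lineage in each library, and 183 and 237 CPM of Hist1h1c, below the lineage in each library. The part of free RNA in the difference between libraries was not tested.

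Related genes gave a comparison from lists chosen with earlier results of these data known. Of the replication-independent histone variants, 10 of 11 passed the minimum, and 6 were higher in S-leaning than in non-cycling control cells and 8 in those of the MYC library, against 44.7% and 45.3% of all genes, so the control count is near that background. H3f3b, which encodes the variant H3.3, was lower in S-leaning cells, 932 against 1568 CPM in the control, while H2afz, the H2A.Z gene, was higher at 1487 against 487 CPM. H3f3a and H2afy stood at 895 and 793 CPM in S-leaning control cells. For histone mRNA synthesis and 3′ processing 8 of 11 were higher in each library, and for histone chaperones 10 of 10, beside the same shares of all genes. The chaperone genes Nasp, Rbbp7 and Asf1b had control log2 ratios of 3.72, 3.38 and 4.11, and Rbbp4 of 1.80. Between libraries 0 genes of the 3 lists were called in cycling cells of the lineage, against 1.53% higher and 2.91% lower among all genes, so a count of 0 is near that background. Their log2 ratios had medians of 0.30, -0.34 and -0.06. Slbp, the stem-loop binding protein, stood at 156 CPM in cycling control cells and 110 CPM in those of the MYC library (log2 ratio -0.51, -0.57 to -0.45). Casp8ap2, Cpsf2 and Eri1, which take part in making or trimming histone mRNA, had ratios of -0.48, -0.35 and -0.15. Read against the median of all genes, -0.20, 11 of 11 variants and 7 of 10 chaperones lay above it, as 48 of 60 members did. Of the 12 processing genes 8 lay below it and 4 above, with Lsm10, a subunit of the particle that processes histone mRNA, highest at 0.71 (0.50 to 0.91).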

How the data were processed

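The deposited values are raw UMI counts for each gene in each barcode, made by the authors with Cell Ranger 6.0 per the submitters' processing notes (6.0.0 per the file headers), which also name GRCm38, mm10 and Seurat. Cell calling and the counting annotation are not given in the sources used here. Cells with at least 500 UMIs, 200 genes and under 10% mitochondrial UMIs were kept, leaving 15461 and 12896. Scrublet, in scanpy 1.11.5, removed 558 and 356 as doublets at a fixed score of 0.2, set after its automatic threshold marked 0 cells of the MYC library. Libraries were clustered together (Leiden, resolution 1) without histone and cycle genes. Clusters took names from 18 marker sets, and 3 stayed unnamed. Members are all matching symbols. Named are the 10 with most UMIs, all H1 genes and those with the largest or smallest ratios, 4 of each by state and 3 of each by library. Members and lists were chosen with earlier results of these data known. Nothing was corrected for free RNA. Intervals were checked on simulated Poisson counts, the model they assume. That simulation had no spread between cells or libraries, so it does not bear on either.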

Additional observations from a re-analysis of the deposited data

Results flagged for a closer look

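In the neutrophil lineage 6 members had log2 ratios of MYC over control that lay on opposite sides of 0 in cycling and non-cycling cells, with intervals that excluded 0 in each; the difference between the states was not tested. Hist1h2ap stood at -0.55 in cycling and 0.28 in non-cycling cells, Hist1h2ae at -0.23 and 0.36, and Hist1h4h at -0.11 and 0.48. The other 3 went the opposite way, Hist1h4i with 0.27 and -0.27, Hist1h3d with 0.19 and -0.91 and Hist1h2be with 0.56 and -0.37. Hist1h2be overlaps Hist1h1e on the same strand, so reads of the pair may be shared. Mature-neutrophil-like cells of the 2 libraries lie mostly in different clusters, and not all of these signs held in non-cycling immature-neutrophil-like cells. There Hist1h2be was higher in the MYC library, 6.85 against 9.60 CPM (log2 0.49, 0.09 to 0.88), Hist1h4i stood at 12.1 and 12.7 CPM, and the interval of Hist1h4h (0.11) included 0. Hist1h2ap (0.36) and Hist1h2ae (0.33) stayed above 0, and Hist1h3d was lower, at 2.23 and 0.911 CPM. Set against the median of all genes, -0.20 in cycling and -0.23 in non-cycling cells, the negative side held for Hist1h2ap alone, at -0.35 (-0.37 to -0.33). Cycling Hist1h4h turned to 0.09, cycling Hist1h2ae came to -0.04, and non-cycling Hist1h4i to -0.03, Hist1h2be to -0.13 and Hist1h3d to -0.67, and the intervals of these last 4 included 0.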

How the results depend on the processing

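No alternative turned the direction of the 4 summed ratios below. Single members did turn: within immature clusters Hist1h1c went from -1.05 to 0.21 and Hist1h2bc from -0.71 to 1.44 for S-leaning over non-cycling control cells, and 9 of 60 members and the core sum change sign between libraries when set against the median of all genes. The 4 sums, as log2, were 2.32 and 2.23 for S-leaning over non-cycling in control and MYC library, 0.39 for MYC over control in S-leaning cells and 0.48 in non-cycling cells. In that order they were 1.55, 1.48, 0.60 and 0.71 with median-of-ratios scaling, 2.65, 2.58, 0.45 and 0.52 with stricter cycling limits (15 and 2 list UMIs), 2.13, 2.14, 0.42 and 0.41 as means of per-cell CPM, and 2.07, 1.87, 0.23 and 0.43 without Hist1h1b. Chosen after seeing the data, immature clusters alone gave 2.83, 2.70, 0.56 and 0.69, and short-end members alone 4.06, 3.67, 0.30 and 0.685. The first 3 were 1.75, 1.57 and 0.32 when the 20 most abundant genes left the denominator, 2.43, 2.20 and 0.24 under 5% mitochondrial UMIs, 2.38, 2.34 and 0.45 with doublets kept, and 2.35, 2.17 and 0.31 with cells classed by their own markers. Thinning to 3000 UMIs gave 2.41 and 2.26 for the first 2 and 0.53 for the last. Leiden resolution 0.5 gave 2.32 for the MYC library and 0.48 in S-leaning cells, and resolution 2 gave 2.38 in the control and 0.33 in S-leaning cells. The count of members past 2-fold between libraries, 1, became 3 with median-of-ratios scaling and 0 under 5% mitochondrial UMIs, the cause of which was not tested. No paired analysis was possible because each group has 1 library. Without replicates no result shows more than a difference between these 2 libraries, and members with few UMIs were not detectable as different at this depth.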
